A study of Mus musculus with 12 samples.

Results

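A set of 10 genes of the unfolded protein response of the endoplasmic reticulum (ER) were followed in 12 mouse pancreatic tumours. They were taken by symbol, and all 10 of 10 were found among the 24956 gene symbols of the count table: the chaperones and folding enzymes Hspa5, Hsp90b1, Calr and Pdia4, the co-chaperones Sdf2l1 and Dnajb9, the degradation factor Herpud1, and the transcription factors Xbp1, Atf4 and Ddit3. All 12 tumours were grown from PDA.69, a line made from a pancreatic ductal adenocarcinoma of the KPC mouse model and labelled as low in T cells. The hosts were of 2 kinds. In Alb-Cre+/+ STAT3f/f hosts (6 tumours) the albumin promoter drives Cre in hepatocytes, where it removes the floxed Stat3 gene. WT hosts (6 tumours) carry neither change. The tumour line is the same in both, so the genotype is that of the host and not of the cancer cells. All tumours come from 1 line, host age is not given in the labels used here, and the labels name no separate mouse for each tumour, so p-values measure only the spread between these tumours.

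The ER folds proteins that enter the secretory pathway, and cells that secrete much, such as the acinar cells of the exocrine pancreas, keep a large folding machinery. When unfolded proteins build up, membrane sensors start the unfolded protein response. IRE1 (Ern1) splices Xbp1 mRNA into the form that encodes an active transcription factor, PERK (Eif2ak3) slows translation while Atf4 mRNA is translated better, and ATF6 is cut to release a transcription factor. Both XBP1 and ATF6 act on genes for chaperones and for ER-associated degradation, and ATF4 acts on genes for amino acid supply and on Ddit3, which encodes CHOP. Counts of 3' ends per gene cannot separate spliced from unspliced Xbp1 mRNA and do not show translation.

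Libraries held 6093094 to 8091193 counts in Alb-Cre+/+ STAT3f/f tumours and 5701153 to 7605720 in WT tumours. The tumours differed in their share of acinar enzyme RNA. A list of 26 acinar enzyme genes took 0.754 to 39.7% of counts in Alb-Cre+/+ STAT3f/f tumours and 0.549 to 20.6% in WT tumours. An acinar score was therefore given to each tumour, the mean log2 CPM (counts scaled by TMM-normalised library size) of the 23 list genes that passed the low count filter, centred on 0 over the 12 tumours. It ran from -4.20 to 3.37 in Alb-Cre+/+ STAT3f/f tumours and from -4.11 to 1.62 in WT tumours. Over 15% of counts fell in the acinar genes in 5 tumours, namely Alb-Cre+/+ STAT3f/f 1, 2, 3 and 4 and WT 5. All 9 epithelial markers of the tumour were detected, at a summed 2729 to 3495 CPM in Alb-Cre+/+ STAT3f/f tumours and 3677 to 4433 CPM in WT tumours. The 10 leukocyte markers summed to 274 to 403 CPM in Alb-Cre+/+ STAT3f/f tumours and to 147 to 253 CPM in WT tumours. Neither sum overlapped between hosts, but how many of all genes part the hosts was not counted. The part of these sums in the genotype differences below was not tested. In such bulk samples, fewer cells of a type and less RNA per cell cannot be told apart.

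None of the 10 genes differed between host genotypes past the threshold. By the quasi-likelihood test of edgeR, adjusted after Benjamini and Hochberg over 12856 genes, 0 of 10 passed at 0.05, where 2.98% of all tested genes did (2.23% higher and 0.747% lower). At an unadjusted p under 0.05 the count was 4 of 10, namely Herpud1, Sdf2l1, Xbp1 and Atf4, all higher in Alb-Cre+/+ STAT3f/f tumours, against 19.4% of all genes. DESeq2 called 2 of 10, Herpud1 and Sdf2l1. Over the same 12856 genes it called 609 higher and 286 lower, against 287 and 96 by edgeR. The median log2 fold change of the 10 genes was 0.17, beside -0.00077 over all tested genes. The acinar slope, the change in log2 expression per log2 unit of acinar score with genotype in the same model, was positive and passed for Xbp1 and Sdf2l1, 2 of 10, where 2.69% of all genes had a positive slope past the threshold and 0.809% a negative one (3.50% in all). At an unadjusted p under 0.05 it was 4 of 10, with Herpud1 and Dnajb9 added, against 18.0% of all genes. The median slope was 0.051 over the 10 genes and -0.00017 over all tested genes. The 95% intervals of the slopes of Hspa5 and Calr lay within -0.067 to 0.067.

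**Figure D1:**
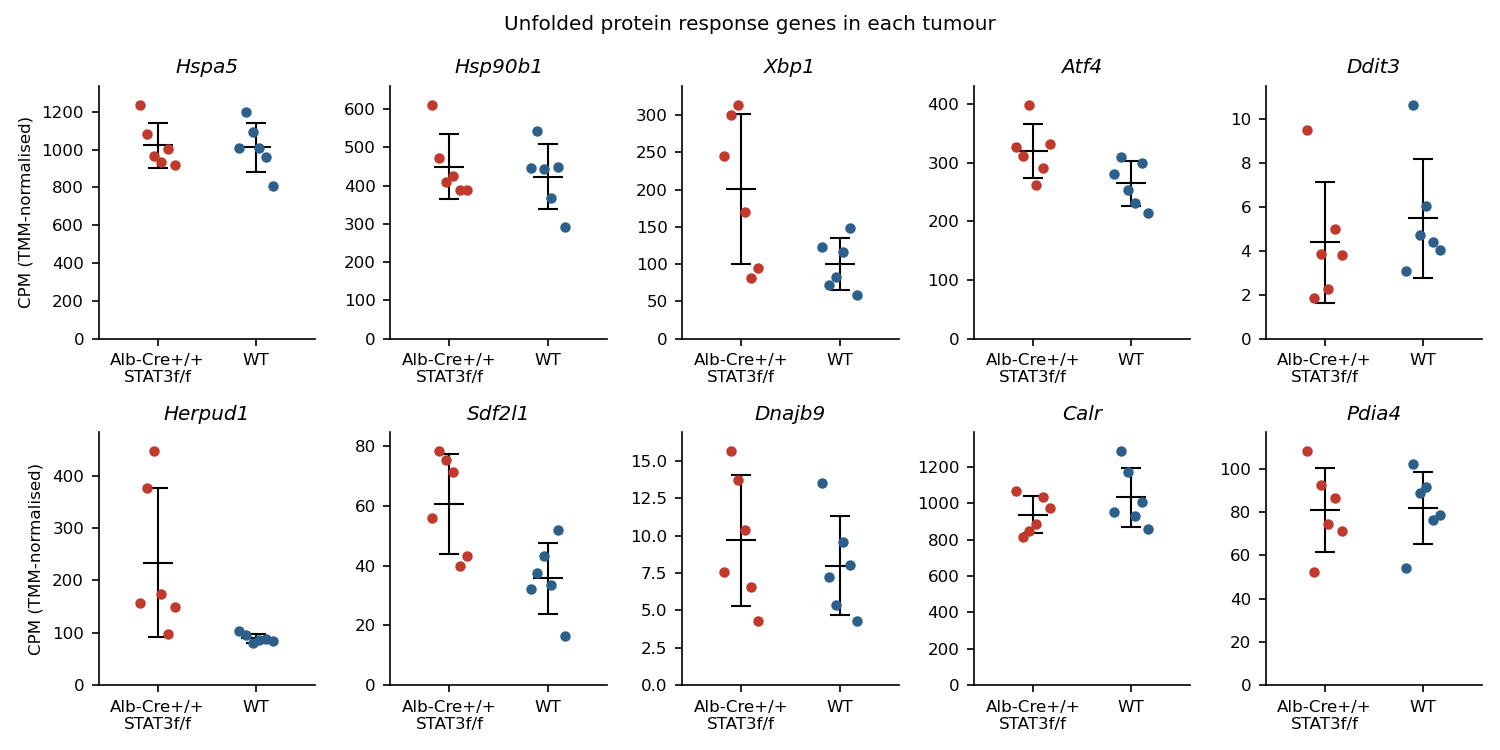
Level of each of the 10 genes (y axis, TMM-normalised CPM from 0) in 6 Alb-Cre+/+ STAT3f/f tumours (red) and 6 WT tumours (blue); points are tumours, and bars show the mean and SD. Herpud1 lay between 81.0 and 103 CPM in WT tumours and between 97.5 and 447 CPM in Alb-Cre+/+ STAT3f/f tumours. The groups overlapped for each of the 10 genes.

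Hspa5 (chromosome 2, 34771970 to 34777547, plus strand, GRCm38), which encodes BiP, the HSP70 chaperone of the ER and the switch of the sensors, had 917, 983 and 1238 CPM as lowest, median and highest value in Alb-Cre+/+ STAT3f/f tumours and 807, 1009 and 1198 CPM in WT tumours. The groups overlapped almost fully. The log2 fold change was 0.01 ± 0.11 (SE, 95% interval -0.22 to 0.25, adjusted p = 0.961). The acinar slope was 0.017 ± 0.024 with a 95% interval of -0.034 to 0.067 and an adjusted p of 0.776.

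Hsp90b1 (chromosome 10, 86690209 to 86705509, minus strand), the HSP90 chaperone of the ER also known as GRP94, had 387, 417 and 611 CPM in Alb-Cre+/+ STAT3f/f tumours and 292, 445 and 543 CPM in WT tumours. Its log2 fold change was 0.08 ± 0.14 (95% interval -0.21 to 0.38, adjusted p = 0.788) and its acinar slope 0.056 ± 0.029 (adjusted p = 0.318). Calr (chromosome 8, 84841850 to 84846934, minus strand), the calcium-binding lectin chaperone of glycoproteins, had 818, 930.2 and 1070.4 CPM in Alb-Cre+/+ STAT3f/f tumours and 858, 979 and 1288 CPM in WT tumours. No Alb-Cre+/+ STAT3f/f tumour exceeded the highest WT tumour, and 2 of 6 lay below the lowest. The log2 fold change of Calr was -0.14 ± 0.12 (95% interval -0.38 to 0.10, adjusted p = 0.537), and its slope was -0.015 ± 0.025 (adjusted p = 0.805).

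Pdia4 (chromosome 6, 47796141 to 47813430, minus strand), a protein disulphide isomerase also called ERp72, had 52.4, 80.7 and 108 CPM in Alb-Cre+/+ STAT3f/f tumours and 53.9, 83.7 and 102 CPM in WT tumours. Its log2 fold change was -0.015 ± 0.16 (95% interval -0.36 to 0.33, adjusted p = 0.971) and its slope -0.030 ± 0.037 (adjusted p = 0.733). The same tumours stood highest for several of these genes. Alb-Cre+/+ STAT3f/f 1 had the highest and WT 2 the next highest level of Hspa5, Hsp90b1 and Pdia4 (1238 and 1198 CPM, 611 and 543 CPM, 108 and 102 CPM), and WT 6 had the lowest level of Hspa5 and Hsp90b1. Calr was highest in WT 2 and behind 2 WT tumours in Alb-Cre+/+ STAT3f/f 1. These tumours differed widely in acinar share, at 24.8% in Alb-Cre+/+ STAT3f/f 1, 2.77% in WT 2 and 0.549% in WT 6. Rn45s, a ribosomal RNA gene, took its largest shares of counts in Alb-Cre+/+ STAT3f/f 1 and WT 2 as well, at 4.99 and 5.60% against 2.15 to 4.60% in the other 10 tumours. Jchain, the joining chain of secreted antibody and a plasma cell marker, was highest in the same tumours of each host, at 122 CPM in Alb-Cre+/+ STAT3f/f 1 and 328 CPM in WT 2. The part of either in these levels was not tested.

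Promoters of 6 genes are shown because they hold the known response elements of this pathway or belong to the genes that changed with acinar score. The ER stress response element, ERSE, is CCAAT and CCACG with 9 bases between them and is bound by ATF6 and XBP1 with the CCAAT factor NF-Y. Its shorter form ERSE-II, known from the human HERPUD1 gene, is ATTGG and CCACG with 1 base between them. Both strands of the 250 bases before each gene's RefSeq start were searched in RefSeq's sequences (GRCm38.p6), where all 10 genes matched. ERSE was found in 3 of the 10 genes, Hspa5, Hsp90b1 (2 sites) and Calr, and in 0.113% of 32851 promoters. ERSE-II was found in Herpud1 and in 0.0304% of promoters. Capitals mark ERSE or ERSE-II on either strand, and in Sdf2l1, which holds neither, the CCACG that ends both elements, here on the minus strand. CCACG alone occurred in 28.3% of promoters. Positions count back from the RefSeq start; GENCODE M21 places the start of Hspa5, Hsp90b1 and Calr further upstream, within the stretch shown, and those of Ddit3 and Dnajb9 upstream too, so that the Dnajb9 stretch searched lies inside the GENCODE gene.
Hspa5, chr2:34771840-34772089, plus strand: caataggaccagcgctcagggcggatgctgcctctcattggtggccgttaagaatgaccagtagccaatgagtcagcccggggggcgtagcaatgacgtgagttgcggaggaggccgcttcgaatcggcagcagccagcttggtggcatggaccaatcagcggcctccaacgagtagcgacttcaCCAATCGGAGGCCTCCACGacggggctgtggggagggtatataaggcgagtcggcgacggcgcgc
Hsp90b1, chr10:86705445-86705694, minus strand: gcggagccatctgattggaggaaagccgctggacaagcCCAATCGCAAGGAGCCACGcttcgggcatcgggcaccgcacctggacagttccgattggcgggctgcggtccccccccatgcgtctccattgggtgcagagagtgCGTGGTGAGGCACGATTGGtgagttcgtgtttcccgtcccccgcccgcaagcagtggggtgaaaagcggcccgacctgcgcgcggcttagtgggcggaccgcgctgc
Calr, chr8:84846932-84847181, minus strand: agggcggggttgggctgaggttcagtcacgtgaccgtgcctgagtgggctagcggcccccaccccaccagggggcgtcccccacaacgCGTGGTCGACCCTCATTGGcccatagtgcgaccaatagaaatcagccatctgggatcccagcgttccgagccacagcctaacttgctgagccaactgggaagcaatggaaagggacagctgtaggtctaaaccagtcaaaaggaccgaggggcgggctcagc
Herpud1, chr8:94386179-94386428, plus strand: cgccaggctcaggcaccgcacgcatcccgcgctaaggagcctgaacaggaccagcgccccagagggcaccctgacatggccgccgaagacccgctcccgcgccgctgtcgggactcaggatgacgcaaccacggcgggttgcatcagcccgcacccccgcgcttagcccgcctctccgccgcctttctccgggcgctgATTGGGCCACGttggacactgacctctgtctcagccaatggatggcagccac
Sdf2l1, chr16:17132384-17132633, minus strand: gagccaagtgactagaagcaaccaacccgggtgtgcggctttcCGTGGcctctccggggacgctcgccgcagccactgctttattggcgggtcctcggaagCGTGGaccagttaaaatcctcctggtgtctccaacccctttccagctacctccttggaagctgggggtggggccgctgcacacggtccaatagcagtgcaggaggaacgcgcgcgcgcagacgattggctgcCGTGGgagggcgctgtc
Xbp1, chr11:5520391-5520640, plus strand: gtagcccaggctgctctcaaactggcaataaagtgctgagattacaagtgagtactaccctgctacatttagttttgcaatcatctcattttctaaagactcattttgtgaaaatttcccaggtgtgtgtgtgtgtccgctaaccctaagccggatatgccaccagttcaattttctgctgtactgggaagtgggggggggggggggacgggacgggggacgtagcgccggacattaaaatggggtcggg
The ERSE of Hspa5 lies at -65 to -47, those of Hsp90b1 at -212 to -194 and -107 to -89, that of Calr at -162 to -144, and the ERSE-II of Herpud1 at -52 to -42. The window of Xbp1 holds none of these letters, nor does any of the 10 windows hold TGACGTGG, the core of the XBP1 site UPRE, which overlaps CCACG on its other strand and occurs in 0.563% of promoters, or TGATGNAAT, a form of the element bound by C/EBP and ATF4, which occurs in 0.816%. Of the 10 genes, the 4 with either element had no called acinar slope and the 2 with a called slope had neither element. That contrast rests on few genes, depends on the threshold and was not tested. Herpud1, 1 of the 4, had a slope with an unadjusted p of 0.0118 by edgeR's test and was called by DESeq2. Among the other folding genes 26 had a RefSeq promoter, and 7 of these had a called positive slope. An element was held by 4 (Canx, Pdia6, Creld2 and Dnajc3), of which 3 had a called slope. Among 18 degradation genes with a promoter 5 had a called slope, and 2 held an element (Syvn1 and Derl3), of which 1 had a called slope. A match of letters is a description and was not tested for binding.

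Xbp1 (chromosome 11, 5520659 to 5525893, plus strand) followed the acinar score most steeply among the 10 genes. It had 80.8, 208 and 314 CPM as lowest, median and highest value in Alb-Cre+/+ STAT3f/f tumours and 59.0, 99.4 and 149 CPM in WT tumours. Those Alb-Cre+/+ STAT3f/f tumours that exceeded the highest WT tumour were the 4 with over 15% acinar counts, at 170 to 314 CPM, while Alb-Cre+/+ STAT3f/f 5 and 6 had 80.8 and 94.9 CPM. WT 5, the WT tumour richest in acinar RNA, had the highest WT level, 149 CPM. The log2 fold change between genotypes was 1.00 ± 0.39 (SE), with an adjusted p of 0.190, and it was 0.34 ± 0.22 with the acinar score in the model (adjusted p = 0.645). Without the 5 tumours over 15% it was -0.043 ± 0.27. The acinar slope was 0.24 ± 0.046 (95% interval 0.14 to 0.34, adjusted p = 0.0116), 1.18-fold per doubling of the acinar genes. Fitted within 1 genotype, the slope was 0.26 ± 0.057 in the 6 Alb-Cre+/+ STAT3f/f tumours and 0.21 ± 0.055 in the 6 WT tumours, with adjusted p of 0.0717 and 0.165 by the same edgeR test. Within Alb-Cre+/+ STAT3f/f tumours 0 of 10 genes passed, where 1.63% of all genes did, and 3 had an unadjusted p under 0.05, against 12.1%. Within WT tumours 0 of 10 passed, where 0.910% of all genes did, and 3 had an unadjusted p under 0.05, against 10.2%. Without Alb-Cre+/+ STAT3f/f 5, the tumour with the lowest score, the slope was 0.28 ± 0.072 and did not pass (adjusted p = 0.110).

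Sdf2l1 (chromosome 16, 17130138 to 17132383, minus strand), a partner of the J-domain co-chaperones of BiP, had 40.0, 63.7 and 78.3 CPM in Alb-Cre+/+ STAT3f/f tumours and 16.5, 35.4 and 51.8 CPM in WT tumours. As with Xbp1, Alb-Cre+/+ STAT3f/f 1 to 4 exceeded the highest WT tumour, at 56.0 to 78.3 CPM, and WT 5 was the highest WT tumour. The log2 fold change was 0.76 ± 0.24 (adjusted p = 0.105) and 0.41 ± 0.16 with the acinar score in the model (adjusted p = 0.279). The genotype difference passed edgeR's test when WT 5 was left out (0.89 ± 0.24, adjusted p = 0.0492), and it was 0.36 ± 0.27 without the 5 tumours over 15% acinar counts (adjusted p = 0.734). With the score in the model and Alb-Cre+/+ STAT3f/f 5 left out it was 0.029 ± 0.22 (adjusted p = 0.998). The acinar slope was 0.16 ± 0.033 (95% interval 0.088 to 0.23, adjusted p = 0.00829) and passed without any 1 tumour, with adjusted p between 0.00574 and 0.0409. It was 0.13 ± 0.036 within Alb-Cre+/+ STAT3f/f tumours and 0.23 ± 0.060 within WT tumours. The lowest level, 16.5 CPM, was in WT 6, against 40.0 CPM in Alb-Cre+/+ STAT3f/f 5, although these tumours were alike in acinar share (0.549 and 0.754%).

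Dnajb9 (chromosome 12, 44205559 to 44210326, minus strand), which encodes ERdj4, a J-domain protein that binds BiP and holds IRE1 inactive, had 31 to 119 counts per library. It had 4.31, 8.97 and 15.7 CPM in Alb-Cre+/+ STAT3f/f tumours and 4.30, 7.63 and 13.5 CPM in WT tumours, and the groups overlapped. Its log2 fold change was 0.25 ± 0.31 (adjusted p = 0.709). Its slope of 0.16 ± 0.061 equalled that of Sdf2l1 to 2 decimals, but with fewer counts and a wider error it did not pass (adjusted p = 0.160).

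Herpud1 (chromosome 8, 94386438 to 94395377, plus strand), an ER membrane protein that helps to pass misfolded proteins to degradation, had the largest log2 fold change between genotypes of the 10 genes. It had 97.5, 165 and 447 CPM in Alb-Cre+/+ STAT3f/f tumours and 81.0, 86.4 and 103 CPM in WT tumours. Of the 6 Alb-Cre+/+ STAT3f/f tumours, 5 exceeded the highest WT tumour, and Alb-Cre+/+ STAT3f/f 5, at 97.5 CPM, lay below WT 1 (103 CPM). Alb-Cre+/+ STAT3f/f 2 and 3 stood far above the rest at 377 and 447 CPM, and Alb-Cre+/+ STAT3f/f 1, 4 and 6 had 157, 174 and 149 CPM. The log2 fold change was 1.38 ± 0.35 (95% interval 0.60 to 2.16), a 2.61-fold difference with an adjusted p of 0.0638. It passed edgeR's test without Alb-Cre+/+ STAT3f/f 5 (1.53 ± 0.30, adjusted p = 0.0195) and in DESeq2 (adjusted p = 0.00357). It was 0.80 ± 0.31 with the acinar score in the model (adjusted p = 0.319) and 0.46 ± 0.16 without the 5 tumours over 15% acinar counts (adjusted p = 0.246).

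The fitted acinar slope of Herpud1 was steeper in 1 host than in the other, but the difference was not called. Within Alb-Cre+/+ STAT3f/f tumours its slope was 0.25 ± 0.072 (adjusted p = 0.220), and within WT tumours 0.025 ± 0.038 (adjusted p = 0.868). At like acinar shares, Alb-Cre+/+ STAT3f/f 1 and 4 (24.8 and 26.3%) had 157 and 174 CPM of Herpud1, against 87.5 CPM in WT 5 (20.6%), and Alb-Cre+/+ STAT3f/f 5 (0.754%) had 97.5 CPM, against 83.9 CPM in WT 6 (0.549%). The slope was 0.23 ± 0.098 steeper in Alb-Cre+/+ STAT3f/f tumours, with an unadjusted p of 0.0373 and an adjusted p of 1.00 (0.999922 before rounding) by edgeR's interaction test. That test called 0 of 10 genes and 0.00% of all genes, with 490 of 12856 (3.81%) at an unadjusted p under 0.05, and DESeq2 called 4 genes, none of them among the 10. When 1 tumour was left out, the difference ranged from 0.18 to 0.57 and passed in none of these fits. The highest, 0.57 ± 0.11, came without Alb-Cre+/+ STAT3f/f 5, the tumour with the lowest score. Its adjusted p of 0.0965 was the lowest of these fits. Over both hosts the slope of Herpud1 was 0.19 ± 0.061 (adjusted p = 0.136).

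**Figure D2:**
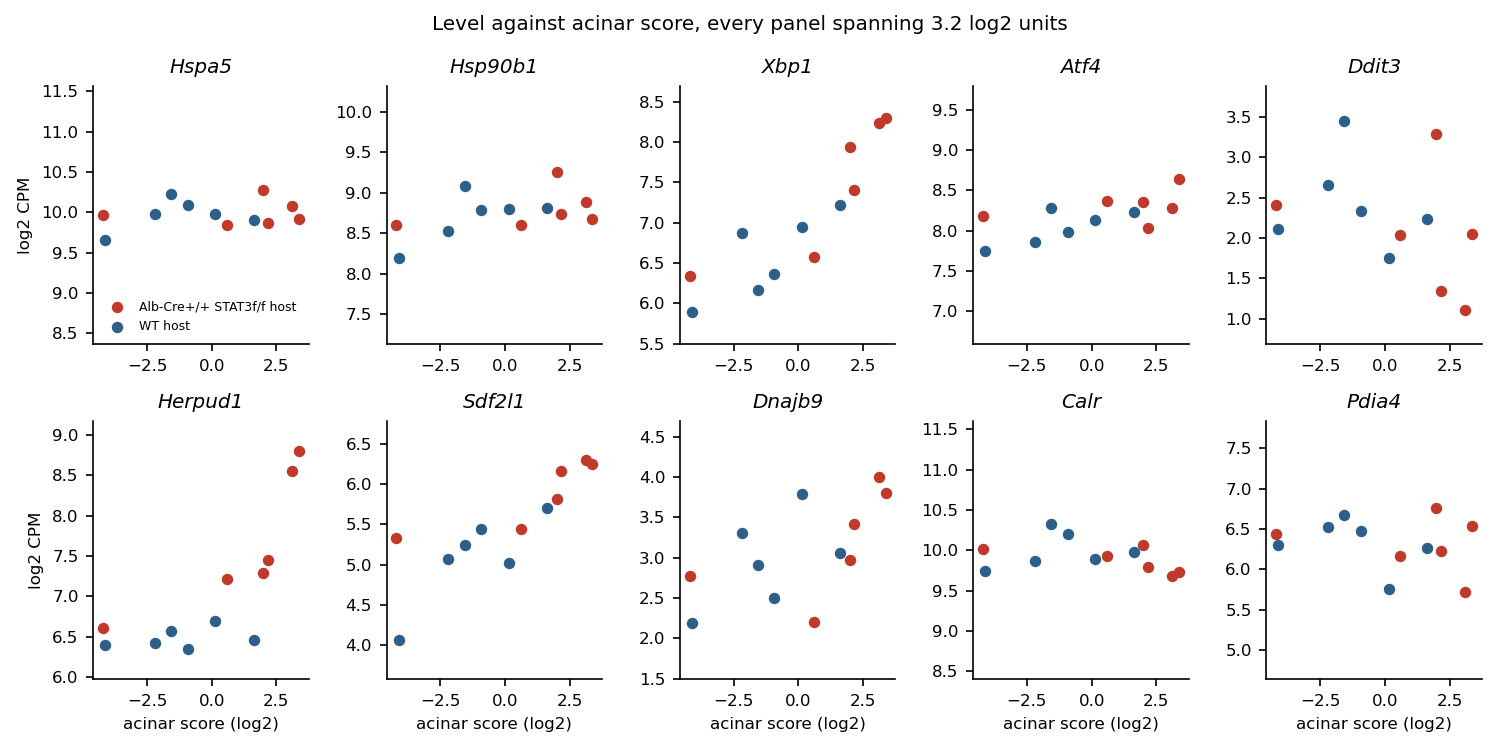
Log2 CPM of each gene (y axis, the same span in every panel) against the acinar score (x axis, log2 scale, centred on 0) in Alb-Cre+/+ STAT3f/f tumours (red) and WT tumours (blue); each point is a tumour. Xbp1 and Sdf2l1 had positive slopes in both hosts, Herpud1 reached its highest levels in the 2 Alb-Cre+/+ STAT3f/f tumours with the highest scores, 3.11 and 3.37, and Hspa5 and Calr lay nearly flat.

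Atf4 (chromosome 15, 80255184 to 80257541, plus strand), the transcription factor of the PERK arm, had 262, 319 and 399 CPM in Alb-Cre+/+ STAT3f/f tumours and 214, 267 and 310.3 CPM in WT tumours. The groups overlapped, and 4 of 6 Alb-Cre+/+ STAT3f/f tumours exceeded the highest WT tumour, Alb-Cre+/+ STAT3f/f 3 by most (399 CPM). Alb-Cre+/+ STAT3f/f 2 was nearly level with it, at 310.7 CPM against 310.3 CPM in WT 2. Its log2 fold change was 0.27 ± 0.11 (95% interval 0.034 to 0.51, adjusted p = 0.194), a 1.21-fold difference, and its slope 0.046 ± 0.023 (adjusted p = 0.303). Ddit3, the pro-apoptotic factor CHOP, which GENCODE M21 lists under 2 overlapping gene identifiers on chromosome 10 (127290774 to 127296288 and 127290829 to 127293753, plus strand), had only 8 to 78 counts per library. It had 1.87, 3.83 and 9.51 CPM in Alb-Cre+/+ STAT3f/f tumours and 3.07, 4.58 and 10.7 CPM in WT tumours. The highest levels were again in Alb-Cre+/+ STAT3f/f 1 and WT 2. The log2 fold change of Ddit3 was -0.32 ± 0.37, with a 95% interval of -1.10 to 0.46 and an adjusted p of 0.688. A difference of either sign within that interval is not excluded. Its slope was -0.061 ± 0.087 (adjusted p = 0.768).

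**Figure D3:**
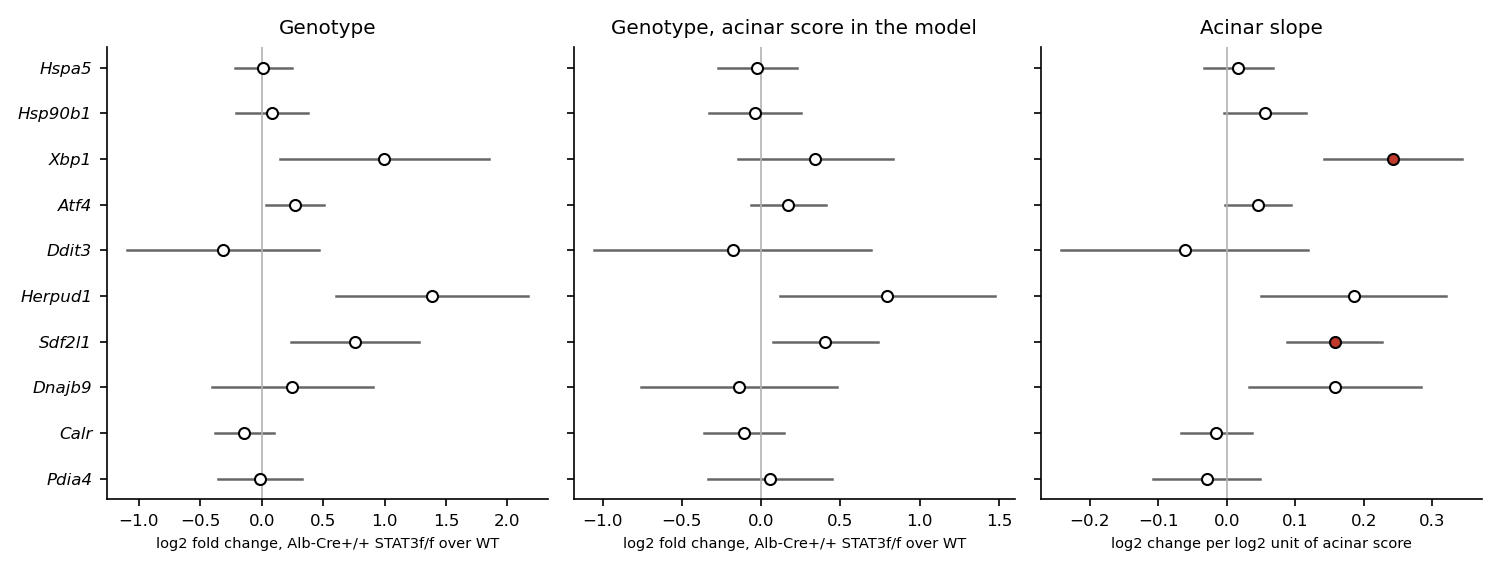
Log2 fold change of Alb-Cre+/+ STAT3f/f over WT tumours without (left) and with (middle) the acinar score in the model, and the acinar slope (right), for each gene with its 95% interval; filled points passed the threshold of 0.05 after adjustment. Filled points are Xbp1 and Sdf2l1 in the right panel.

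Once the acinar score was in the model, 0 of 10 genes passed for genotype in edgeR and in DESeq2, where edgeR called 1.37% of all genes. That background, 140 genes higher and 36 lower, shrank to 3 and 1 when Alb-Cre+/+ STAT3f/f 5 was left out, and leaving out Alb-Cre+/+ STAT3f/f 4 gave 263 and 105. An unadjusted p under 0.05 was found for 2 of 10, Herpud1 and Sdf2l1, against 11.7% of all genes. The fold changes of Xbp1, Herpud1, Sdf2l1 and Atf4 were smaller in that model than without the score. When Alb-Cre+/+ STAT3f/f 5 was left out as well, that of Atf4 was 0.044 ± 0.16 and that of Xbp1 0.17 ± 0.34 (adjusted p 0.992 and 0.981). Hspa5, Calr and Pdia4 had log2 fold changes between -0.11 and 0.06 in it, and their 95% intervals lay within -0.36 to 0.45.

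For each gene, the genes most like it over the 12 tumours were found by Pearson's r of log2 CPM, leaving out the acinar enzymes and the other members; r is given as a description, and all genes share the libraries and their acinar content. The nearest to Xbp1 were Edem2 (r = 0.966), a mannosidase-like factor that passes glycoproteins to degradation, Tram1 (0.962), a translocon protein, and Papola (0.962). The nearest to Herpud1 was Chac1 (0.978), an enzyme that degrades glutathione, followed by Dusp8 (0.974) and Serinc3 (0.971). The nearest to Atf4 were Dlc1 (0.951), Mthfd2 (0.946), a mitochondrial one-carbon enzyme, and Gpsm3 (0.929). For Sdf2l1 they were Siah2 (0.962), Brsk2 (0.954) and Tbc1d30 (0.953), and for Dnajb9 Mfsd14b (0.947), Selenok (0.902) and Rpl15 (0.902). For Hspa5 they were Hp (0.887), B3galt4 (0.861) and Rabl2 (0.858), for Hsp90b1 Rnf111 (0.902), Ube2d-ps (0.879) and Chl1 (0.841), for Calr Fam13b (0.933), Lcor (0.901) and Hspd1 (0.885), for Pdia4 Pik3ap1 (0.933), Zfp87 (0.878) and Nolc1 (0.854), and for Ddit3 Top3b (0.907), Prdm2 (0.872) and Specc1l (0.867).

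In the wider pathway, some genes rose with acinar score and most did not pass. The counts below stand beside 2.69% of all genes with a positive slope past the threshold and 0.809% with a negative one. Of 34 tested ER folding enzymes and co-chaperones, 9 had a positive slope past the threshold, 0 a negative one and 25 did not pass, with a median slope of 0.059. Pdia2, a pancreatic disulphide isomerase, had a slope of 1.01 ± 0.033, as steep as the acinar enzymes themselves (median slope 1.02), with 2.56 to 772 CPM in Alb-Cre+/+ STAT3f/f tumours and 3.74 to 142 CPM in WT tumours. Erp27, a pancreatic ER protein without the redox site, had 0.71 ± 0.046, and Ero1lb, the oxidase that recharges disulphide isomerases in the pancreas, 0.58 ± 0.083. Dnajc3, a J-domain partner of BiP known as p58IPK, had 0.20 ± 0.026. The adjusted p of these 4 slopes was at most 0.000280, and they passed without any 1 tumour.

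Of 21 tested genes of ER-associated degradation, 5 had a positive slope past the threshold, 0 a negative one and 16 did not pass (median slope 0.061). Derl3, a derlin of secretory cells, had a slope of 0.50 ± 0.065. Sel1l, the partner of the ubiquitin ligase HRD1, had 0.28 ± 0.035, with 168 to 946 CPM in Alb-Cre+/+ STAT3f/f tumours and 142 to 343 CPM in WT tumours. The mannosidase-like genes Edem2 and Edem3 had 0.31 ± 0.046 and 0.14 ± 0.037. Within Alb-Cre+/+ STAT3f/f tumours alone the slope of Edem3 was 0.20 ± 0.042 (adjusted p = 0.0173), and within WT tumours alone 0.027 ± 0.048 (adjusted p = 0.891), a difference of 0.17 ± 0.067 that did not pass the interaction test (adjusted p = 1.00). Of 28 tested genes of the translocon, signal peptidase and oligosaccharyltransferase, 7 had a positive slope past the threshold, 0 a negative one and 21 did not pass (median slope 0.046), among them Tram1 (0.18 ± 0.029), the signal peptidase genes Sec11c (0.14 ± 0.028) and Spcs3 (0.20 ± 0.042), and Ssr3 (0.12 ± 0.025). Of 17 tested sensors and their processing factors, Eif2ak3, encoding PERK, passed with 0.25 ± 0.046 (adjusted p = 0.00333) and 16 did not, with a median slope of 0.028. Next in order of p were Eif2s1, the translation factor that PERK phosphorylates (0.098 ± 0.028, adjusted p = 0.0508), and the membrane-bound transcription factor genes Creb3l1 (0.11 ± 0.033, adjusted p = 0.0611) and Creb3l4 (-0.23 ± 0.078, adjusted p = 0.112).

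Of 35 tested genes in the list of ATF4 and CHOP targets, 4 had a positive slope past the threshold, 0 a negative one and 31 did not pass (median slope 0.063). They were Asns, asparagine synthetase (0.25 ± 0.033), Ppp1r15b, the constitutive subunit of the phosphatase that restores translation (0.13 ± 0.023), Pycr1, an enzyme of proline synthesis (0.28 ± 0.055), and Nupr1, a stress factor first found in the inflamed pancreas (0.36 ± 0.072). Ppp1r15a, the stress-induced subunit in the same list, had a slope of 0.030 ± 0.048 (adjusted p = 0.799 by edgeR's test). The counts of positive slopes rested partly on Alb-Cre+/+ STAT3f/f 5, without which they were 4 folding, 2 degradation, 1 translocon and 0 sensor genes. Over all genes, positive slopes past the threshold went from 346 to 150 in that fit. Without Alb-Cre+/+ STAT3f/f 5 the slopes of Edem2, Edem3, Sec11c, Spcs3, Ssr3, Eif2ak3 and Nupr1 did not pass (adjusted p 0.0629 to 0.526 by edgeR's test). Leaving out Alb-Cre+/+ STAT3f/f 2 or 3 also lost Edem3, and leaving out Alb-Cre+/+ STAT3f/f 3 or WT 5 lost Nupr1 (adjusted p 0.0599 to 0.0726). The count of degradation genes fell to 3 when Alb-Cre+/+ STAT3f/f 3 was left out, and that of translocon genes to 4 when Alb-Cre+/+ STAT3f/f 2 or 3 or WT 5 was. Removing Alb-Cre+/+ STAT3f/f 4, WT 2 or WT 4 gave 3 sensor genes.

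**Figure D4:**
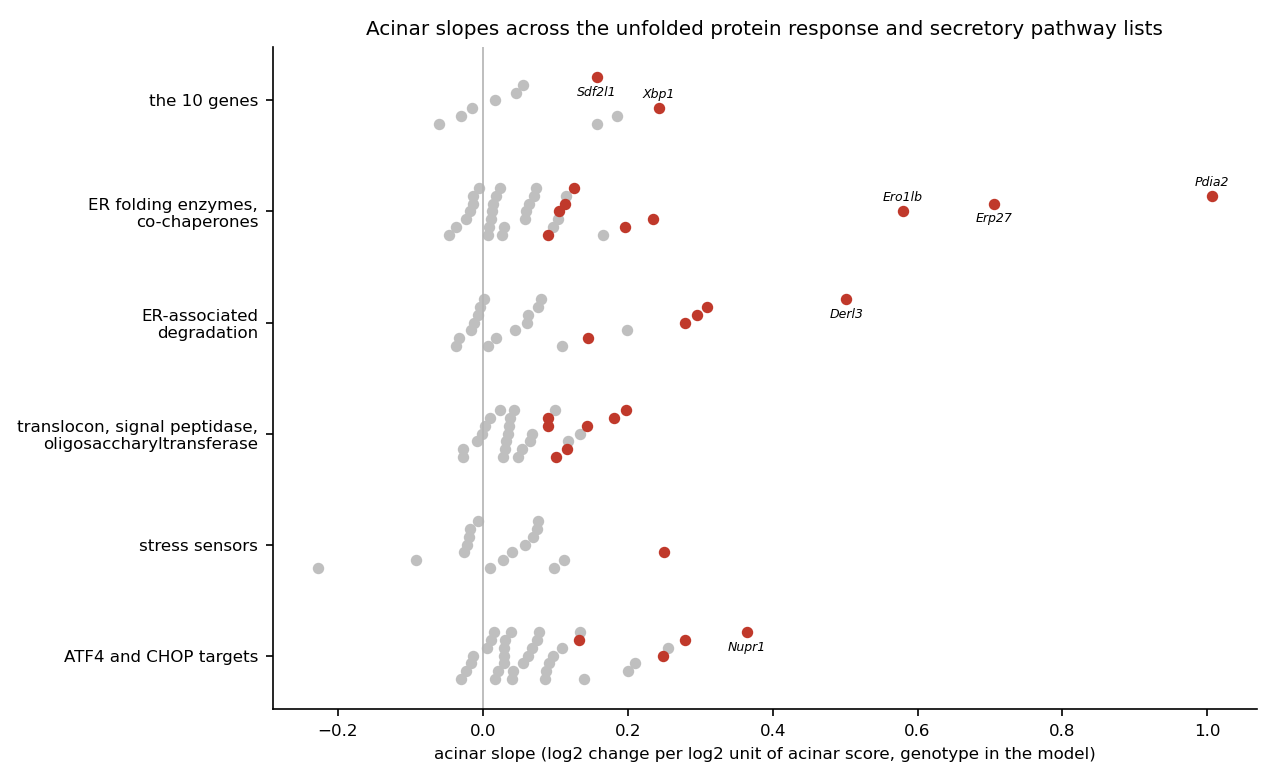
Acinar slope (x axis, log2 change per log2 unit of acinar score with genotype in the model) of every tested gene of the 10 and of 5 pathway lists (y axis; the spread within a row only separates points); red points passed the threshold of 0.05 after adjustment. All red points lie right of 0, from 0.090 (Pdia6, Spcs2 and Stt3a) to 1.01 (Pdia2).

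Between genotypes the ATF4 and CHOP targets had the highest median log2 fold change of the 5 lists, 0.39, and 3 of 35 passed, all higher, where 2.23% of all genes passed as higher and 2.98% in either direction. Wars, a tryptophanyl-tRNA synthetase that interferon also raises, rose by 0.75 ± 0.16 (adjusted p = 0.0154), at 126 to 246 CPM in Alb-Cre+/+ STAT3f/f tumours against 65.3 to 124 CPM in WT tumours. Only a narrow gap parted the groups, between Alb-Cre+/+ STAT3f/f 4 (125.7 CPM) and WT 5 (124.1 CPM). How many of all genes part the hosts was not counted. Chac1 rose by 1.61 ± 0.37 (adjusted p = 0.0238), at 4.23 to 24.1 CPM in Alb-Cre+/+ STAT3f/f tumours against 3.11 to 4.89 CPM in WT tumours, with the highest values in Alb-Cre+/+ STAT3f/f 2 and 3 as for Herpud1. Chac1 did not pass without Alb-Cre+/+ STAT3f/f 2 or 3 or WT 2, 3, 4 or 6 (adjusted p 0.0511 to 0.0588 by edgeR's test). Its log2 fold change was 0.67 ± 0.36 without the 5 tumours over 15% acinar counts (adjusted p = 0.543) and 0.96 ± 0.36 with the acinar score in the model (adjusted p = 0.235). Wars had 0.72 ± 0.17 without those 5 tumours (adjusted p = 0.0685) and 0.62 ± 0.15 with the score in the model (adjusted p = 0.0508). Cebpg, a C/EBP partner of ATF4, passed as well (0.47 ± 0.13, adjusted p = 0.0489). Asns, with a log2 fold change of 1.53 ± 0.38, had an adjusted p of 0.0573, and with the acinar score in the model it was the 1 target of 35 that passed (0.94 ± 0.16, adjusted p = 0.00376). The count of called targets was 1 when Alb-Cre+/+ STAT3f/f 2 or 3 or WT 2, 3 or 4 was left out. It was 7 when Alb-Cre+/+ STAT3f/f 4 was left out, 5 for Alb-Cre+/+ STAT3f/f 5 and 9 for WT 5, and DESeq2 called 12.

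Of the 34 folding genes 1 passed as higher and 2 as lower, where 2.23% and 0.747% of all genes did. Rcn1, a calcium-binding protein of the ER lumen, rose by 0.67 ± 0.17 (adjusted p = 0.0356). Prkcsh, the glucosidase II beta subunit, fell by 0.40 ± 0.11 on the log2 scale (adjusted p = 0.0461), as did Dnajc10, a disulphide reductase, by 0.44 ± 0.12 (adjusted p = 0.0468). No call of this list remained without Alb-Cre+/+ STAT3f/f 1, 2, 3 or 6 or WT 2, 3 or 4, 1 was left without WT 6, and 6 were made without Alb-Cre+/+ STAT3f/f 5. With the acinar score in the model 0 of 34 folding genes passed (Rcn1 0.61 ± 0.18, adjusted p = 0.106, and Prkcsh -0.32 ± 0.11, adjusted p = 0.176), nor did any gene of the degradation, translocon or sensor lists. Without the 5 tumours over 15% acinar counts Rcn1 passed (0.85 ± 0.18, adjusted p = 0.0335), and Prkcsh had -0.20 ± 0.14 (adjusted p = 0.692). Edem3 and Os9 in degradation (log2 fold changes 0.69 and 0.47), Ssr4 and Srprb in translocation (0.57 and 0.40) and Eif2ak3 and Eif2s1 among the sensors (1.13 and 0.48) had the smallest p in their lists, and 0 of 21, 0 of 28 and 0 of 17 passed for genotype. At an unadjusted p under 0.05 the counts were 6, 10 and 5, where 19.4% of all genes had one, and DESeq2 called 5 and 1 genes of the degradation and translocon lists and 0 sensors. With Alb-Cre+/+ STAT3f/f 5 left out, edgeR called 5, 3 and 2. It called 1 degradation gene when Alb-Cre+/+ STAT3f/f 6, and 1 sensor when WT 5, was left out. Over all genes DESeq2 called 609 higher and 286 lower, and edgeR without Alb-Cre+/+ STAT3f/f 5 called 471 and 222.

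Cells other than acinar cells also use this machinery. Of the plasma cell markers 7 of 13 were in the table, and they summed to 236 to 331 CPM in Alb-Cre+/+ STAT3f/f tumours and 296 to 588 CPM in WT tumours. In Alb-Cre+/+ STAT3f/f 6, Jchain, Mzb1 and Derl3 had 19.6, 1.52 and 5.83 CPM, so most of the sum there came from other genes of the list. Jchain had 19.6 to 122 CPM in Alb-Cre+/+ STAT3f/f tumours and 36.6 to 328 CPM in WT tumours, with an acinar slope of -0.050 ± 0.17 (adjusted p = 0.917). Derl3 stands in this list as well as in that of degradation and was its only gene with a called slope. Of its 6 tested genes, Sdc1 and Prdm1 fell in Alb-Cre+/+ STAT3f/f tumours by 0.51 ± 0.097 and 0.60 ± 0.14 on the log2 scale (adjusted p 0.00809 and 0.0254 by edgeR's test). The other 4 did not pass and did not share 1 direction. Irf4 and Derl3 had log2 fold changes of 1.18 ± 0.33 and 2.08 ± 0.68 (adjusted p 0.0573 and 0.127). Jchain and Mzb1 had -1.43 ± 0.62 and -0.023 ± 0.55 (adjusted p 0.239 and 0.987). Of the 9 epithelial markers of the tumour, 2 passed as lower as well and 7 did not pass. Which cells the RNA of Sdc1 and Prdm1 came from was not tested. Islet markers moved with the acinar score, with 4 of 8 slopes positive and past the threshold (median slope 0.51), summing to 71.5 to 1283 CPM in Alb-Cre+/+ STAT3f/f tumours and 37.5 to 1041 CPM in WT tumours, and their part in the slopes of Xbp1 and Sdf2l1 was not tested.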

How the data were processed

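Per the labels' protocols, fixed, paraffin-embedded tumour sections were scraped, and their RNA was isolated (RNeasy FFPE) and sequenced as QuantSeq FWD 3' mRNA libraries. The deposited values are raw counts per gene symbol, made by the authors without normalisation; the submitters' processing notes name STAR and mm10, while versions, counting tool, annotation and strand setting were not given in the sources used here. Libraries held 5701153 to 8091193 counts, and, without stated molecular identifiers, reads may not be independent molecules. How reads of similar or overlapping genes were counted is not given either, which bears on Ddit3. The table had 24982 entries, of which 26 held a date serial instead of a symbol and were dropped (0.0690 to 0.166% of counts). The labels give no batch.

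The counts went into edgeR 4.0.16 (R 4.3.3): filterByExpr with genotype as group (minimum count 10, minimum total 15, proportion 0.7), which left 12856 genes and all 10 members, TMM scaling (factors 0.578 to 1.29) and the robust quasi-likelihood test, two-sided, with Benjamini-Hochberg adjustment across every tested gene and 0.05 as the threshold. Models held genotype alone, genotype and acinar score, or both with their interaction. The standard error is the log2 value over the root of the F statistic, and intervals are 95% from the test's degrees of freedom. Log2 CPM used a prior count of 2. The acinar score is made from the same libraries as the members, none of which is in it. The score and log2 acinar share had r = 0.996 over the 12 tumours. The closest 2 libraries had a chi-square per gene of 11.8, so no library was counted as a repeat of another. On simulated counts over 12856 genes, 53 of 67 genes changed by 1 log2 unit between genotypes and 56 of 67 given an acinar slope of 0.2 were recovered, and 12 of 67 and 10 of 67 at 0.5 and 0.1. Genes with a low mean CPM, Ddit3 among them, were not changed there. All other genes were held at no change, and counts were drawn separately for each gene. The recovery may differ for low counts and for genes that move together.

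The members and gene lists were chosen with earlier results of these data known. Named pathway genes were, in each list, the 4 with the smallest p for the slope and the 2 for genotype. Cebpg, Ppp1r15a, Dnajc10, Pdia6, Spcs2, Stt3a, Canx, Creld2, Syvn1, Jchain, Sdc1, Prdm1, Irf4 and Mzb1 were named after their values were seen. Alternatives were DESeq2 1.42.0, other scaling and filters, a replicate block, leaving out tumours, and other acinar measures.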

Additional observations from a re-analysis of the deposited data

How the results depend on the processing

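The count of members called for genotype, 0 of 10, was 2 in DESeq2, 1 without the robust option, and 0 to 1 when 1 tumour was left out; with the acinar score as covariate and for the interaction it was 0 in every setting run. The count called for acinar slope, 2 of 10, was 0 within WT tumours alone and 0 within Alb-Cre+/+ STAT3f/f tumours alone, fits on 6 tumours each, and 1 to 2 when 1 tumour was left out; it was 3 in DESeq2, without the robust option and without genotype in the model, Herpud1 being the gene added. The replicate numbers of the titles were tried as pairs. Deviations of same-numbered tumours correlated by -0.51 to 0.13, and 1 of 6 Alb-Cre+/+ STAT3f/f tumours correlated best with its own number. With 6 pairs that also differ in acinar content, these values cannot show whether the numbers mark pairs. With that replicate block the members called for slope were 1, and the block made no other change to a count of members; it gave 4 folding, 2 degradation, 1 translocon and 0 sensor genes for slope and 0 folding genes for genotype. Genes near 0 changed sign. For genotype without the tumours over 15% acinar counts, the log2 fold change was -0.043 for Xbp1, -0.56 for Dnajb9, -0.11 for Hsp90b1 and -0.092 for Hspa5, and with a stricter filter on low counts, which left out Ddit3 and Dnajb9, it was 0.0043 for Pdia4. With the acinar score and the replicate block it was 0.014 for Dnajb9, 0.033 for Hsp90b1 and 0.047 for Hspa5, and the slope of Hspa5 was -0.013 with the block. The slope of Calr was 0.030 within WT tumours. When 1 tumour was left out, genotype ranged from -0.050 to 0.067 for Hspa5, -0.024 to 0.17 for Hsp90b1 and -0.12 to 0.081 for Pdia4; with the acinar score it ranged from -0.096 to 0.026 for Hspa5, -0.16 to 0.041 for Hsp90b1, -0.071 to 0.12 for Pdia4, -0.62 to 0.074 for Dnajb9 and -0.50 to 0.087 for Ddit3; slopes ranged from -0.0023 to 0.032 for Hspa5 and -0.037 to 0.0014 for Calr. The cause was not tested for any of these. Over all genes, 346 positive and 104 negative slopes became 100 to 749 and 10 to 480 over the other settings, and 287 higher and 96 lower genes for genotype became 83 to 609 and 14 to 286. With the acinar score in the model, 140 higher and 36 lower became 3 to 263 and 1 to 105 when 1 tumour was left out. Alternatives for the interaction, the pathway lists and their named genes, and counts over all genes were chosen after seeing the data. No scaling moved the median of all genes by 0.1 or more. Low counts limit Ddit3 and Dnajb9.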
